A study of Mus musculus with 9 samples.

Results

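Cathepsins are the proteases of the lysosome, and cystatin C is a secreted protein that inhibits many of them. The transcripts of 9 cathepsins (Ctss, Ctsa, Ctsb, Ctsc, Ctsd, Ctsh, Ctsk, Ctsl, Ctsz) and of cystatin C (Cst3) were followed in ageing mouse lacrimal glands. They were taken by gene symbol, a choice made with earlier results of these data known. They are 10 of the 54232 genes in the count table, and all 10 passed the filter on low counts. The lacrimal gland makes the watery layer of tears. Its RNA was sequenced in C57BL/6J female mice fed ad libitum under a 12 h light and dark cycle, and the labels name no allele or treatment. Each of the ages 2, 12 and 24 months had 3 libraries, and the titles of the youngest read 8W. The labels do not say whether libraries came from separate mice, so p-values reflect the spread among these libraries alone, which may be technical.

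Cathepsins B, C, H, K, L, S and Z belong to the papain family of cysteine proteases, cathepsin D is an aspartic protease and cathepsin A a serine carboxypeptidase. They are made as inactive precursors, sorted to the lysosome and activated there by cleavage. Cathepsin S is made mainly by antigen-presenting cells, where it degrades the invariant chain and so frees MHC class II molecules for peptides. It stays active at neutral pH, and its activity in tears has been measured as a marker of lacrimal gland autoimmunity in mice and people. Cystatin C binds the active site of the papain-type enzymes tightly and does not inhibit cathepsins A and D.

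Promoter sequence was available from RefSeq (GRCm38.p6) for 8 of the 10 genes, Ctsb and Ctsh being the others. Each stretch runs from 250 bases before the annotated start of transcription to 30 bases after it, and 3 short motifs were searched in it on both strands. The core of the elements bound by interferon regulatory factors, 2 copies of GAAA with 2 bases between them, is held by 3.28% of the 32851 promoter stretches in the table. GAGGAAGT is a site type of the myeloid factor PU.1 and is held by 2.82%. CACGTG, a palindrome bound by TFEB and related factors that drive lysosomal genes, is held by 6.79%. None of the 3 motifs overlaps another in the stretches of these genes. The stretch of Ctss is shown because it was the only one of 9 that held the interferon element core, and those of Ctsd, Ctsl and the second start site of Ctsa because they held CACGTG. Capitals mark the matches, and sequences run 5′ to 3′.

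Ctss, chr3:95526536-95526815, plus strand: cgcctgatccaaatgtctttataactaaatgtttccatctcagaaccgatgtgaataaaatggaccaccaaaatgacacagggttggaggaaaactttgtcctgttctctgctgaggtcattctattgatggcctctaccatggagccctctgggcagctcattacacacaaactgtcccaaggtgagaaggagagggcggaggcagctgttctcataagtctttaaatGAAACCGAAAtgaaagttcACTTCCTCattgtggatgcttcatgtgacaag
Ctsd, chr7:142387798-142388077, minus strand: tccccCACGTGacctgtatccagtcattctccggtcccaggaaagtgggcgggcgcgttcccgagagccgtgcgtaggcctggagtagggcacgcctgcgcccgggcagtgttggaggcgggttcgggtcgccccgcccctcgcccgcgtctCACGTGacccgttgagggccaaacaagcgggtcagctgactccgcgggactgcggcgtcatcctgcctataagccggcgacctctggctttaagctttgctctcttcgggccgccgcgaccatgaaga
Ctsl, chr13:64370491-64370770, minus strand: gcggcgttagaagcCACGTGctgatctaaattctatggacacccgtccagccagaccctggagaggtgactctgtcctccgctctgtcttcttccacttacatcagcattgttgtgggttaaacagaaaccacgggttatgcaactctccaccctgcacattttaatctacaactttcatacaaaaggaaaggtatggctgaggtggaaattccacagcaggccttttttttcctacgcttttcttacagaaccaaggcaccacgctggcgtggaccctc
Ctsa, second start site, chr2:164833523-164833802, plus strand: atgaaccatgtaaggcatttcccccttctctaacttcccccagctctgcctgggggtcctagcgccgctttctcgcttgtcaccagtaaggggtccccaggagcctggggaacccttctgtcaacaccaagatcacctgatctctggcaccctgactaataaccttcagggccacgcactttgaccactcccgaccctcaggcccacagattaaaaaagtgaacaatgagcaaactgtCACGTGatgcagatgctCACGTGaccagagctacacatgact

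In Ctss the interferon element core lay at bases -21 to -12 from the start and the reverse complement of GAGGAAGT at bases -2 to 6, with no base numbered 0. Ctsd held CACGTG at bases -245 to -240 and -98 to -93, Ctsl at -236 to -231, and Ctsa at -12 to -7 and 6 to 11 of its second start site. Ctsc held the reverse complement of GAGGAAGT at -151 to -144, while the stretches of Ctsk, Ctsz, Cst3 and the first start site of Ctsa held none of the 3 motifs. The RefSeq starts need not be the ones used in this gland.

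Each library held 40516863 to 42573877 counts. Summed levels of 8 lacrimal acinar markers were 177500 to 258500 CPM (counts per library size, scaled between libraries by TMM) in the 9 libraries, and none of the 8 was at 0 throughout. Obp1a made up most of this sum, with 168200 of 193300 CPM in 2-month replicate 1. Single markers were called (adjusted p under 0.05) in both directions. Scgb2b27 was lower at 12 than at 2 months and higher at 24 than at 12 months. At 24 against 2 months Car6 was higher and Bhlha15 lower. With scaling by library totals the Bhlha15 call was lost (adjusted p = 0.328). Some libraries held transcripts that mark other tissues, and where these came from was not tested. Salivary gland markers summed to 859, 378.9 and 251.8 CPM in 2-month replicate 3, 12-month replicate 2 and 24-month replicate 2, to 72.8 CPM in 2-month replicate 2, and to 0.573 to 7.33 CPM in the rest. Not every salivary marker followed these sums. Muc19 had at most 1 count in a library, Prol1 was counted only at 24 months (5, 3 and 7 counts), and Dcpp2 only in 2-month replicates 2 and 3 (20 and 198 counts). Skeletal muscle markers summed to 27.9 and 54.3 CPM in 12-month replicates 1 and 3 and to 0.349 to 1.23 CPM elsewhere. Adipocyte markers summed to 1.32 to 1.42 CPM at 2 months, 5.35 to 24.4 CPM at 12 months and 7.11 to 18.8 CPM at 24 months.

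Of the 10 genes, 1 rose between 2 and 12 months, 5 were higher at 24 than at 2 months, and 2 were higher at 24 than at 12 months; none fell in any comparison. Over all 14944 genes tested, the shares called higher were 5.41% for 12 against 2 months, 9.82% for 24 against 2 months and 2.79% for 24 against 12 months. The shares called lower were 2.52%, 7.56% and 1.6% in the same order. A gene was called at an adjusted p under 0.05 in edgeR's quasi-likelihood test, with Benjamini-Hochberg adjustment over all genes tested. The median log2 fold change of the 10 genes was 0.06, against 0.007 for all genes, at 12 against 2 months. For 24 against 2 months the medians were 0.50 and 0.009, and for 24 against 12 months 0.23 and -0.018. In a single test of any difference among the 3 ages, Ctss, Ctsb, Ctsh and Ctsl passed (17% of all genes did), and Cst3 did not (adjusted p = 0.0522). The number higher at 24 than at 2 months was 1, Ctss, when the 3 libraries richest in salivary gland transcripts were left out. That fit keeps 2 libraries an age, and over all genes it called 484 of 15048 higher, against 1467 of 14944 with all 9 libraries.

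**Figure D1:**
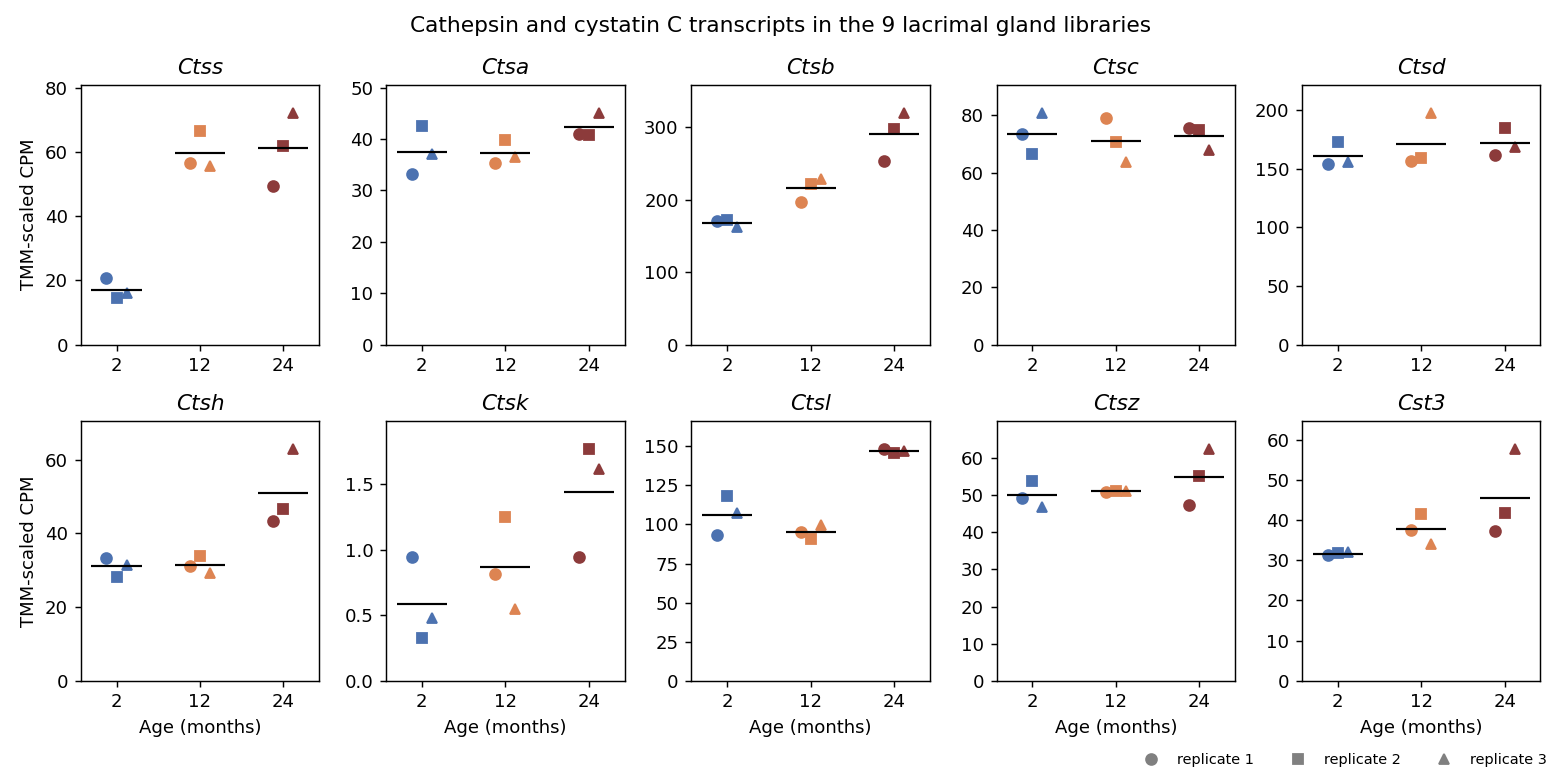
Level of each gene in the 9 libraries, in TMM-scaled CPM (vertical axes start at 0), by age in months. Points are libraries, their shapes give the replicate number and black lines are the means of 3 libraries. Ctss is high at 12 and 24 months, Ctsh and Ctsl at 24 months, and Ctsb is intermediate at 12 months.

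Ctss (ENSMUSG00000038642; chromosome 3, 95526786 to 95556403, GRCm38, plus strand), which encodes cathepsin S, had the largest change of the 10. Its level was 20.7, 14.5 and 16.2 CPM in the 2-month libraries, 56.7, 66.5 and 55.7 CPM in the 12-month libraries, and 49.3, 61.8 and 72.3 CPM in the 24-month libraries. Every older library lay above every 2-month library, and the ranges at 12 and 24 months overlapped. The level was 3.48-fold higher at 12 than at 2 months (log2 fold change 1.80, SE 0.16, adjusted p = 0.000228). At 24 months it was 3.57-fold higher than at 2 months (1.84, SE 0.16, adjusted p = 6.58e-05). Between 24 and 12 months no difference was called (log2 fold change 0.04, SE 0.15, adjusted p = 0.927). The calls against 2 months held in all 19 alternatives, which include each library left out in turn. Without the 3 salivary-rich libraries the log2 fold change was 1.67 at 12 months (adjusted p = 0.0117) and 1.80 at 24 months (adjusted p = 0.00548).

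Ctsb (chromosome 14, 63122462 to 63145923, plus strand) encodes cathepsin B, an abundant cysteine protease of most cells that cleaves from within chains and from their ends. Its level was 170.6, 171.2 and 161.8 CPM at 2 months, 196.9, 220.9 and 228.6 CPM at 12 months, and 253.8, 297 and 319.8 CPM at 24 months. The 3 ages did not overlap, and 12-month libraries lay between the others. The rise of 1.73-fold at 24 against 2 months passed the test (log2 fold change 0.79, SE 0.12, adjusted p = 0.00142). The steps on either side of 12 months did not, with log2 fold changes of 0.36 (SE 0.12, adjusted p = 0.0792) at 12 against 2 months and 0.43 (adjusted p = 0.0579) at 24 against 12 months. With DESeq2 and with limma voom both steps were called (adjusted p = 0.0115 and 0.0385 for the first, 0.00114 and 0.0242 for the second). The first was also called with scaling by library totals (adjusted p = 0.0239), and the second with no count filter (adjusted p = 0.0198) and without 24-month replicate 1 (adjusted p = 0.0318). Without the 3 salivary-rich libraries the rise at 24 against 2 months was 0.75 on the log2 scale and was not called (adjusted p = 0.0518).

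Ctsh and Ctsl had overlapping libraries at 2 and 12 months and were higher at 24 months. Cathepsin H, encoded on chromosome 9 (90054152 to 90076089, plus strand), is an aminopeptidase of the papain family. Ctsh had 33.4, 28.3 and 31.4 CPM at 2 months, 31.2, 34.0 and 29.1 CPM at 12 months, and 43.2, 46.5 and 62.8 CPM at 24 months. All 24-month libraries lay above all younger ones, with replicate 3 the highest. Ctsh was 1.64-fold higher at 24 than at 2 months (log2 fold change 0.71, SE 0.13, adjusted p = 0.00491). Against 12 months the log2 fold change was 0.70 (SE 0.13, adjusted p = 0.0123), and at 12 against 2 months it was 0.02.

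Cathepsin L, encoded on chromosome 13 (64359337 to 64370890, minus strand), is a cysteine protease of nearly all cells, and also degrades the invariant chain in thymic epithelium. Ctsl had 93.0, 118.2 and 107.6 CPM at 2 months, 95.5, 90.6 and 99.7 CPM at 12 months, and 148.2, 145.7 and 147.2 CPM at 24 months. The 24-month libraries were close to each other and above every younger library. The level was 1.38-fold higher at 24 than at 2 months (log2 fold change 0.47, SE 0.11, adjusted p = 0.0115) and higher than at 12 months by 0.63 on the log2 scale (SE 0.11, adjusted p = 0.00636). At 12 against 2 months the log2 fold change was -0.16 and turned to 0.16 with scaling by library totals, and neither value was called.

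The calls of Ctsh and Ctsl at 24 months depended on the libraries used. Without the 3 salivary-rich libraries neither was called against 2 months (log2 fold change 0.79, adjusted p = 0.0503 for Ctsh, and 0.49, adjusted p = 0.124 for Ctsl). Nor was either called against 12 months (0.83, adjusted p = 0.0896 for Ctsh, and 0.61, adjusted p = 0.141 for Ctsl). Without the 2 muscle-bearing 12-month libraries, which leaves 1 library at 12 months, assumed to vary like the other ages, neither was called against 12 months (0.60, adjusted p = 0.309 for Ctsh, and 0.71, adjusted p = 0.118 for Ctsl). Ctsh also missed the threshold against 12 months without 12-month replicate 1 alone (adjusted p = 0.0525) and with scaling by library totals (adjusted p = 0.106). The log2 fold changes kept their sign and stayed between 0.38 and 1.03 at 24 against 2 months in all alternatives for these 2 genes.

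Cst3 (chromosome 2, 148871722 to 148875692, minus strand) encodes the inhibitor cystatin C. It had 31.4, 31.7 and 32.0 CPM at 2 months, 37.6, 41.4 and 34.0 CPM at 12 months, and 37.3, 41.8 and 57.7 CPM at 24 months. The 2-month libraries were nearly equal and lay below all others, while the 12- and 24-month ranges overlapped and 24-month replicate 3 stood highest. Cst3 was 1.44-fold higher at 24 than at 2 months (log2 fold change 0.53, SE 0.14, adjusted p = 0.0244), and at 12 against 2 months the log2 fold change was 0.25 (adjusted p = 0.32). The call was lost without 24-month replicate 3 (log2 fold change 0.32, adjusted p = 0.078) and without 2-month replicate 1, 2 or 3 (adjusted p = 0.0584, 0.0788 and 0.0734). It was also lost without the 3 salivary-rich libraries (adjusted p = 0.124).

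The remaining 5 cathepsins passed no test between ages. Ctsd, the aspartic protease, had 154 to 173 CPM at 2 months, 157 to 198 CPM at 12 months and 161 to 185 CPM at 24 months. Ctsc, the dipeptidyl peptidase that activates granule serine proteases, had 66.6 to 80.9, 63.7 to 79.2 and 67.8 to 75.4 CPM. Ctsz, a carboxypeptidase, had 46.8 to 53.8, 50.8 to 51.2 and 47.2 to 62.4 CPM, and Ctsa, the carboxypeptidase that protects lysosomal galactosidase and neuraminidase, had 33.2 to 42.5, 35.4 to 39.8 and 40.8 to 45.1 CPM. The ages overlapped for Ctsd, Ctsc and Ctsz, while all 24-month libraries lay above all 12-month libraries for Ctsa. At 24 against 2 months their log2 fold changes were 0.09 (Ctsd, SE 0.12), -0.02 (Ctsc, SE 0.11), 0.14 (Ctsz, SE 0.11) and 0.17 (Ctsa, SE 0.10). With scaling by library totals Ctsa was called at 24 against 2 months (log2 fold change 0.49, adjusted p = 0.0291); that scaling moved the median of all genes to 0.31.

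Ctsk, the collagen-degrading cathepsin of osteoclasts and some fibroblasts, was near the limit of counting. It held 38, 11 and 17 counts in the 2-month libraries, 36, 61 and 24 at 12 months, and 36, 77 and 80 at 24 months. Its log2 fold change at 24 against 2 months was 1.29 (SE 0.46, adjusted p = 0.0743). It was called with DESeq2 (adjusted p = 0.0352), with limma voom (0.0488), with no count filter (0.0341) and without 2-month replicate 1 (log2 fold change 1.83, adjusted p = 0.0319). Ctsk lies 17423 bases before Ctss on the same strand of chromosome 3.

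Libraries of an older age all lay above those of a younger one for 3 genes at 12 against 2 months (Ctss, Ctsb, Cst3), against 15.1% of all genes. There were 5 at 24 against 2 months, the same as those called, against 18.4% of all genes, and 4 at 24 against 12 months (Ctsa, Ctsb, Ctsh, Ctsl), against 12.1%.

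**Figure D2:**
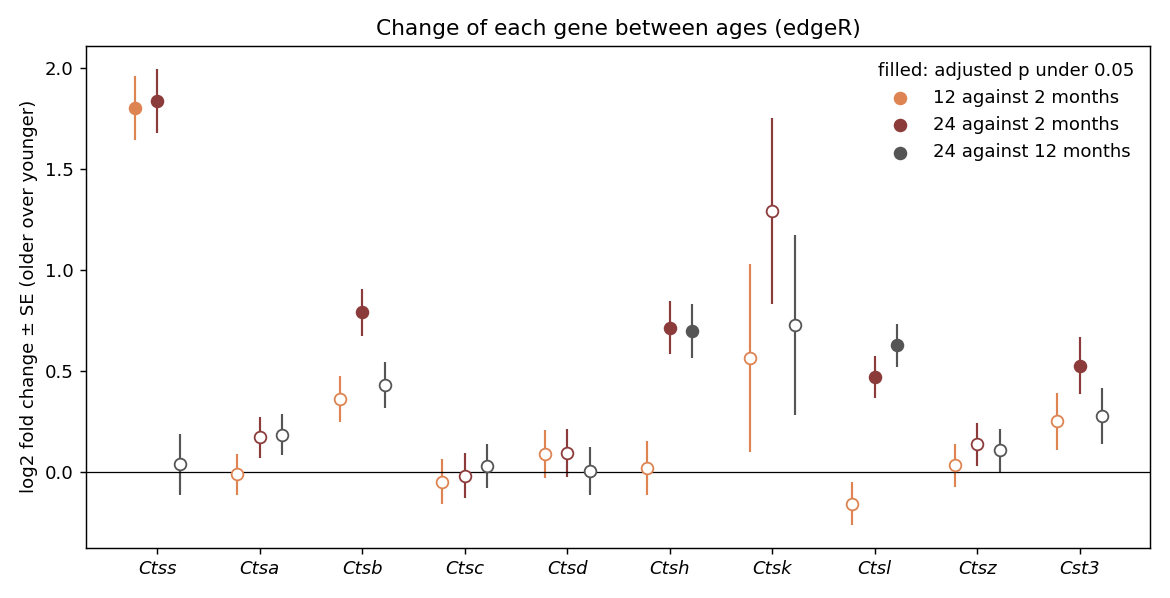
The log2 fold change of each gene (vertical axis, older over younger age, bars are approximate standard errors) in the 3 comparisons of age. Filled points passed an adjusted p of 0.05. Ctss stands near 1.8 in both comparisons with 2 months, Ctsh and Ctsl have filled points at 24 against 2 and 24 against 12 months, and Ctsk has the widest errors.

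Levels of different genes were compared per kb of exon, with the combined length of all exons of a gene. Ctsd was the highest of the 10 at each age, with means of 68.5, 72.8 and 73.0 CPM per kb at 2, 12 and 24 months, and Ctsk the lowest, with 0.386, 0.574 and 0.952. Ctss was seventh at 2 months with 12.6 ± 2.39 CPM per kb (SD, n = 3), within the spread of Ctsc at 12.7 ± 1.23. At 12 months it was behind Ctsd alone with 43.9 ± 4.38, and at 24 months it was behind Ctsd and Ctsb with 45.0 ± 8.45, within the spread of Ctsb at 48.0 ± 5.55. Ctsz had 34.7, 35.4 and 38.1, Cst3 25.03, 29.8 and 36.0, Ctsl 16.4, 14.7 and 22.7, Ctsa 7.97, 7.91 and 8.97, and Ctsh 6.89, 6.98 and 11.3 CPM per kb. Ctsd and Ctsk kept the ends of the order with the length of the longest or of the APPRIS principal transcript, and the order between them depended on the length used.

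The ratio of Ctss to Cst3 transcripts within a library does not depend on the scaling between libraries. Per kb it was 0.616, 0.425 and 0.472 in the 2-month libraries, 1.41, 1.496 and 1.53 in the 12-month libraries, and 1.23, 1.38 and 1.17 in the 24-month libraries. Its mean was 0.504 ± 0.0994, 1.48 ± 0.0640 and 1.26 ± 0.107 (SD, n = 3) at 2, 12 and 24 months, so that Ctss stood below Cst3 at 2 months and above it in every older library. With the APPRIS transcript lengths the 24-month ratio was 0.858, below 1, and the proportion between ages is the same with any length. The 9 cathepsins together stood at 7.50 ± 0.271, 7.79 ± 0.984 and 7.40 ± 1.08 times Cst3, with overlapping ages. Ctss took 6.74 ± 1.41, 19.1 ± 2.00 and 17.2 ± 1.75% of the cathepsin transcripts per kb. The summed level of the 9 was 645 ± 20.9, 733 ± 29.8 and 892 ± 65.2 CPM. These ratios are of transcripts and say nothing of protein or enzyme activity, and they were not tested.

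**Figure D3:**
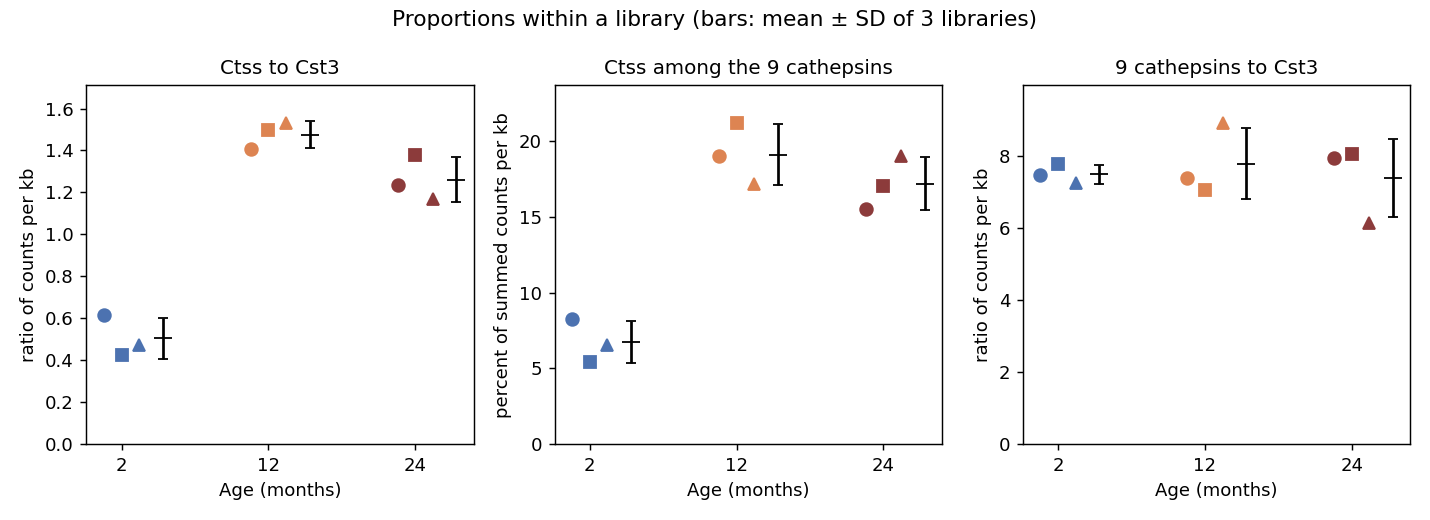
Proportions within each library by age in months: the ratio of Ctss to Cst3, the percent of Ctss among the 9 cathepsins, and the ratio of the 9 cathepsins to Cst3, all from counts per kb of exon. Points are libraries and bars are mean ± SD of 3 libraries. The first 2 measures are separate at 2 months and at the later ages, and the third overlaps.

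The genes whose levels followed each member most closely over the 9 libraries were sought among 9515 genes, by Pearson's r of log2 CPM. These genes had a mean of 2 CPM or more, and antigen receptor segments and predicted genes were left out. The libraries share the differences between ages, so r is a description. Nearest to Ctss were Cxcl13, a chemokine that attracts B cells (r = 0.991), Cd44, an adhesion receptor (0.990), Fcgr2b, an inhibitory antibody receptor (0.987), Gpnmb, a glycoprotein of lysosome-rich macrophages (0.986), and Lyz2, the lysozyme of myeloid cells (0.985). Nearest to Ctsb were Apoe, an apolipoprotein made by macrophages (0.983), Lrp1, an endocytic receptor (0.975), and Fcer1g, a signalling chain of antibody receptors (0.973). Nearest to Ctsh was Jak2, a cytokine receptor kinase (0.984), and nearest to Ctsl were Bcr (0.990) and Myl12a, a myosin light chain (0.981). Nearest to Cst3 was the chaperone gene Clu (0.978). The nearest genes of the 4 that passed no test and of the low Ctsk had r of 0.924 to 0.975. Between members r was highest for Ctsh with Cst3 (0.868), Ctsb with Cst3 (0.851), Ctsb with Ctsh (0.847) and Ctss with Ctsb (0.828), and lowest for Ctsc with Ctsd (-0.663). Ctss with Ctsl had 0.224.

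Macrophages and dendritic cells are known to make cathepsin S, and their markers were called higher in part. In whole glands a higher transcript level can come from more cells of a type or from more RNA per cell, and these cannot be told apart. The 14 macrophage markers summed to 69.8 to 87.8 CPM at 2 months, 114 to 138 CPM at 12 months and 165 to 243 CPM at 24 months. Of the 14, 4 were called higher and 1 lower (Cd163) at 12 against 2 months, 10 higher and none lower at 24 against 2 months, and 3 higher at 24 against 12 months, with 6 at 24 against 2 months without 24-month replicate 3. The complement gene C1qc was 2.81-fold higher at 24 than at 2 months (adjusted p = 0.000162). The 7 dendritic cell markers summed to 3.82 to 4.21, 9.15 to 10.3 and 6.90 to 13.4 CPM, and of them Itgax, an integrin of dendritic cells and macrophages, was called higher at 12 months (adjusted p = 0.00397; 0.0664 without the 3 salivary-rich libraries), and Itgax and Xcr1 at 24 months. The Xcr1 call was lost without 2-month replicate 2 (adjusted p = 0.0547) and without the 3 salivary-rich libraries (0.0523). B cell markers summed to 0.424 to 0.679, 18.1 to 161 and 14.5 to 25.7 CPM, and T cell markers to 1.25 to 2.17, 8.75 to 36.2 and 11.4 to 22.3 CPM. Of 8 B cell markers, 8 were called higher at 12 and 6 at 24 against 2 months, and 5 lower at 24 against 12 months. All 8 T cell markers were called higher at both ages against 2 months. Without the 3 salivary-rich libraries these counts against 2 months were 5 and 6 for B cells and 2 and 5 for T cells. With voom the B cell calls were lost. No list had a marker at 0 in all 9 libraries. Of 8 adipocyte markers, 8 were called higher at 12 against 2 months (3 without 12-month replicate 2) and 7 at 24 against 2 months (3 without 2-month replicate 2), and 1 in each without the 3 salivary-rich libraries. The part of these cells in the levels of Ctss, Ctsb and Cst3 was not tested.

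Cd68, a membrane glycoprotein of macrophage lysosomes, had 4.44, 2.94 and 4.39 CPM at 2 months, 11.9, 16.6 and 17.7 CPM at 12 months and 16.6, 21.6 and 20.7 CPM at 24 months. It was 4.998-fold higher at 24 than at 2 months (log2 fold change 2.32, SE 0.19, adjusted p = 4.58e-05). There were 4.43 ± 0.651, 3.97 ± 0.812 and 3.11 ± 0.331 counts of Ctss for each count of Cd68 (SD, n = 3) at 2, 12 and 24 months. The 12-month libraries overlapped both other ages, while every 24-month library (2.98, 2.86 and 3.48) lay below every 2-month library (4.67, 4.92 and 3.69). Against the summed macrophage markers Ctss stood at 0.209 ± 0.0257, 0.467 ± 0.0395 and 0.321 ± 0.0473, higher in every older library than in every 2-month library. For Ctsl there were 28.6 ± 10.3, 6.37 ± 1.45 and 7.60 ± 1.18 counts for each count of Cd68.

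**Figure D4:**
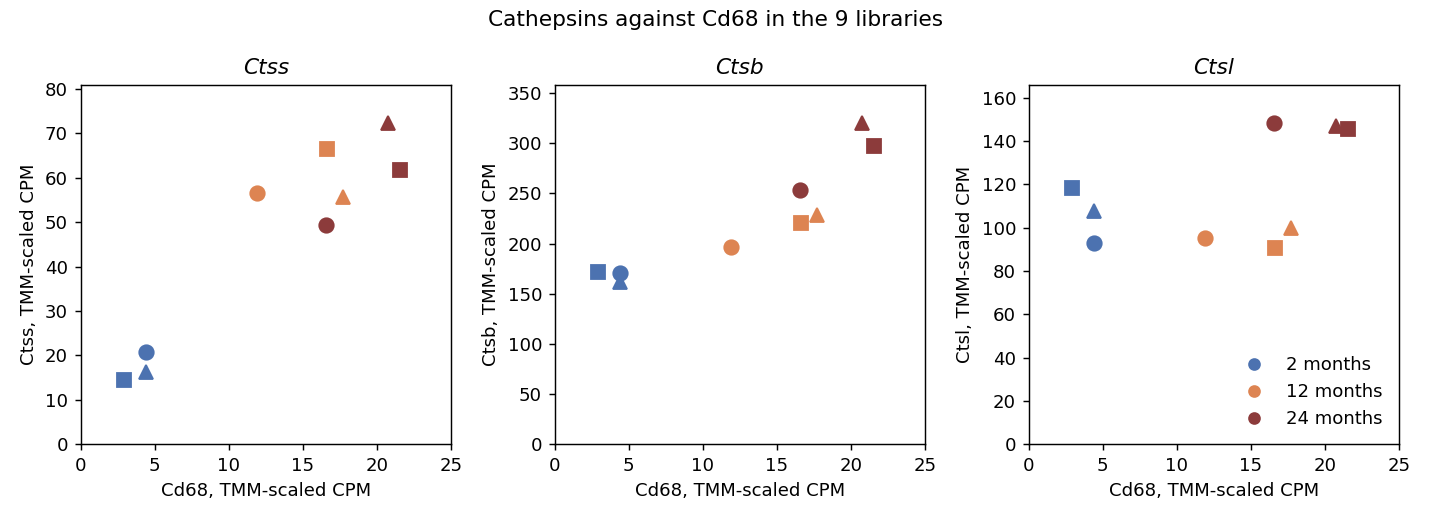
Levels of Ctss, Ctsb and Ctsl (vertical axes) against Cd68 (horizontal axes), all in TMM-scaled CPM, in the 9 libraries, coloured by age and shaped by replicate. Ctss and Ctsb are low where Cd68 is low, while Ctsl at 12 months, 90.6 to 99.7 CPM, is no higher than at 2 months although Cd68 is.

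Fibroblast markers were called higher at 24 months. They summed to 79.7 to 145 CPM at 2 months, 90.6 to 104 CPM at 12 months and 139 to 222 CPM at 24 months. Of 8 tested, 0 were called at 12 against 2 months, 5 were higher at 24 against 2 months (Pdgfra, Dpt, Pi16, Lum and Dcn) and 3 at 24 against 12 months (Pi16, Dcn and Pdgfra). The count at 24 against 2 months was 3 without 2-month replicate 2 or 24-month replicate 3, and that at 24 against 12 months was 0 without 12-month replicate 1 or 2. At 12 against 2 months the collagen genes Col1a1 and Col3a1 were called lower without 2-month replicate 2 (adjusted p = 0.0389 and 0.0378) and with no count filter, and Col1a1 with DESeq2 (adjusted p = 0.034). The growth factor receptor gene Pdgfra was 2.42-fold higher at 24 than at 2 months (adjusted p = 0.00787). The part of fibroblasts in the levels of Ctsh and Ctsl was not tested. Of 7 osteoclast markers 3 were tested and none was called, and the 7 summed to 11.4 to 14.8, 16.0 to 19.3 and 13.1 to 14.04 CPM.

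The genes that work with cathepsins were described by lists, each beside the share of all genes called that was given above. Of 15 other cathepsins and related genes 5 were tested, and 1 was called higher in each of the 3 comparisons. Ctsw, a cathepsin of T and natural killer cells, was 4.68-fold higher at 24 than at 2 months (adjusted p = 0.00787) and higher at 12 than at 2 months (log2 fold change 1.84, SE 0.46, adjusted p = 0.0306), with 50, 46 and 121 counts at 24 months against 21, 6 and 11 at 2 months. The 12-month call was lost without 2-month replicate 2 or 3 or 12-month replicate 1 or 2 (adjusted p = 0.0856 to 0.116) and without the 2 muscle-bearing libraries (0.107). Neither call was made without the 3 salivary-rich libraries (adjusted p = 0.061 at 24 months and 0.298 at 12 months). Ctso and Ctsf, cysteine cathepsins of wide expression, had log2 fold changes of 0.56 (adjusted p = 0.0541) and 0.30 (adjusted p = 0.153) at 24 against 2 months. Ctso was called there without 2-month replicate 2 or 12-month replicate 3 (adjusted p = 0.0473 and 0.044). It was also called with DESeq2 (0.0352), voom (0.0333), a minimum count of 50 (0.0466) and library totals (0.0223). With library totals Ctso was called at 12 months too (0.0352), and Ctsf at 24 months (0.0372), both against 2 months. Tinagl1, a cathepsin B-like protein of the extracellular matrix without protease activity, was higher at 24 than at 12 months (log2 fold change 0.66, adjusted p = 0.0178), a call lost without 12-month replicate 1 or 2 or 24-month replicate 3, with library totals (0.0825), and without the salivary-rich (0.185) or muscle-bearing libraries (0.28).

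Of 19 other cystatins and protease inhibitors 5 were tested, of which 1 was called higher for 12 against 2 months, 2 for 24 against 2 months and 1 for 24 against 12 months. Cst7, the cystatin F of immune cells that acts inside the lysosome, held 32, 13 and 57 counts at 24 months and 72, 80 and 15 at 12 months, against 9, 1 and 2 at 2 months. It was called higher at 12 months (log2 fold change 3.45, SE 0.80, adjusted p = 0.0223) and at 24 months (2.80, SE 0.81, adjusted p = 0.0335). Leaving out 2-month replicate 2 or 3 ended both calls, as did voom; so did 12-month replicate 1 or 2 for the first and 24-month replicate 1 or 3 for the second (adjusted p = 0.0611 to 0.156 over all of these). Without the 3 salivary-rich libraries the adjusted p was 0.122 at 24 months and 0.249 at 12 months. Serpinb6b, of the serpin family, was called higher at 24 than at 2 months (log2 fold change 1.10, adjusted p = 0.0303), and lost the call without 2-month replicate 2 or 3 or 24-month replicate 1 or 3 and without the 3 salivary-rich libraries (0.122). Its call at 24 against 12 months was lost with library totals (0.0703) and without the salivary-rich (0.0558) or muscle-bearing libraries (0.407). Cstb, the cystatin B of the cytosol, had a log2 fold change of -0.06 (SE 0.11, adjusted p = 0.759) at 24 against 2 months.

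Of 13 genes that activate or sort lysosomal proteases, Lgmn was called higher at 12 months and Lgmn and Psap at 24 months, both against 2 months. Lgmn encodes legumain, a lysosomal protease that cleaves cathepsin precursors, and had 11.8, 16.1 and 18.7 CPM at 24 months, against 9.52, 4.85 and 8.04 CPM at 2 months (log2 fold change 1.05, SE 0.22, adjusted p = 0.00897). The 12-month call (0.87, SE 0.22, adjusted p = 0.0336) was lost without 12-month replicate 1 or 2 or 2-month replicate 2 or 3 (adjusted p = 0.0628 to 0.15) and without the 2 muscle-bearing libraries (0.0847). Lgmn was called at neither age without the 3 salivary-rich libraries (adjusted p = 0.0838 at 24 months and 0.329 at 12 months). Psap, which encodes the precursor of saposins, was 1.28-fold higher at 24 than at 2 months (adjusted p = 0.0475), and the call was lost when any 1 library except 24-month replicate 1 was left out, and without the salivary-rich (0.4) or muscle-bearing libraries (0.0917).

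Other lysosomal hydrolases moved in part. Of 27 tested, 4 were higher and none lower at 12 against 2 months, 9 higher and none lower at 24 against 2 months, and 3 higher at 24 against 12 months; the first count was 2 without 12-month replicate 1 or 2 or any 2-month library, the second 6 without 2-month replicate 3, and the third 1 without any 12-month library or 24-month replicate 3. Lipa, the lysosomal acid lipase gene, was 2.15-fold higher at 12 than at 2 months (adjusted p = 0.0058; 0.154 without the 3 salivary-rich libraries) and 3.22-fold higher at 24 than at 2 months (adjusted p = 0.000327). Gusb, the beta-glucuronidase gene, had a course like that of Ctsl, with 112.4, 99.7 and 110.2 CPM at 24 months, against 67.2, 66.6 and 64.6 CPM at 12 months. It was higher at 24 than at 12 months by 0.70 on the log2 scale (SE 0.09, adjusted p = 0.00124; 0.0686 without the 2 muscle-bearing libraries) and had a log2 fold change of -0.12 (adjusted p = 0.46) at 12 against 2 months. Lyz2 was 6.36-fold higher at 24 than at 2 months (adjusted p = 0.000166).

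Of 17 tested genes of the lysosomal membrane and proton pump, Cd68 and Atp6v0d2 were called higher at 12 against 2 months and 5 (these and Npc1, Scarb2 and Atp6v1b2) at 24 against 2 months, or 2 without 2-month replicate 2 or 24-month replicate 3. Atp6v0d2, a pump subunit of osteoclasts and macrophages, held 180, 324 and 258 counts at 24 months, against 16, 1 and 5 at 2 months (log2 fold change 4.85, SE 0.44, adjusted p = 8.33e-05). With scaling by library totals, which raised the median of all genes, 5 of these membrane and pump genes and 7 hydrolases were called higher at 12 against 2 months, and 10 and 14 at 24 against 2 months. At 24 against 12 months 1 hydrolase was called higher with that scaling.

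The MHC class II list held H2-Aa, H2-Ab1 and H2-Eb1, together with H2-DM and H2-O genes, Cd74 and Ciita. Of its genes, 10 of 10 were called higher at 12 against 2 months and 9 of 10 at 24 against 2 months. At 24 against 12 months none was higher and 1 lower (H2-Ob). The count at 12 months was 3 without 2-month replicate 2 or 3 or 12-month replicate 2, and that at 24 months was 0 without 2-month replicate 2 or 3 or 24-month replicate 3. With the replicate number as a block the counts against 2 months were 5 at 12 and 2 at 24 months. With voom H2-DMb1, H2-DMb2, H2-Oa, H2-Ob and Ciita lost both calls, and H2-Aa and H2-Ab1 lost the one at 24 months. Cd74, which encodes the invariant chain itself, had 268, 344 and 132 CPM at 12 months, against 104, 103 and 101 CPM at 2 months. Its 12-month replicate 3 lay near the 2-month level. The log2 fold change of Cd74 was 1.27 (SE 0.30, adjusted p = 0.025) at 12 against 2 months and 1.06 (SE 0.30, adjusted p = 0.0318) at 24 against 2 months, and the calls were lost without any 2-month library, without 12-month replicate 1 or 2 for the first and without 24-month replicate 3 for the second. Without the 3 salivary-rich libraries the adjusted p was 0.291 at 12 months and 0.0751 at 24 months. Counts of Ctss for each count of Cd74 were 0.200, 0.140 and 0.161 in the 2-month libraries, 0.211, 0.193 and 0.423 in the 12-month libraries and 0.275, 0.395 and 0.235 in the 24-month libraries, with 12-month replicate 3, the one low in Cd74, the highest.

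Of 9 tested genes whose products cathepsin S is known to cleave outside the lysosome, none was called at 12 against 2 months and Fn1 at 24 against 2 months. Fn1, the fibronectin gene, was 4.37-fold higher (log2 fold change 2.13, SE 0.57, adjusted p = 0.0249), a call lost without 2-month replicate 1 or 2 or 24-month replicate 1 or 3 and with voom. Ltf, which encodes the tear protein lactoferrin, had 979, 1355 and 1688 CPM at 24 months, against 1391, 1295 and 1275 CPM at 2 months (log2 fold change 0.02, SE 0.18, adjusted p = 0.951). F2rl1, the protease-activated receptor gene, had a log2 fold change of 0.58 (adjusted p = 0.115) at 24 against 2 months, and was called without 24-month replicate 1 (adjusted p = 0.0243). Pigr, which encodes the receptor that carries IgA into tears, had log2 fold changes of 0.51 (adjusted p = 0.0768) at 12 and 0.38 (adjusted p = 0.131) at 24 against 2 months. It was called with DESeq2 (0.00532 and 0.0358) and with library totals (0.0102 and 0.017) at both ages, and at 12 months also with no count filter (0.0132) and in a fit of the libraries compared alone (0.0416).

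The list of acinar secretory vesicle genes held 6 Rab genes, which direct the route by which acinar cells secrete, the myosin gene Myo5c and the membrane fusion gene Vamp8. None of the 8 was called in any of the 3 comparisons, and with scaling by library totals Rab27a was called higher at 12 against 2 months (adjusted p = 0.0452). The Rab3d log2 fold change at 24 against 2 months was 0.01 (SE 0.11), that of Rab27a -0.25 (SE 0.11, adjusted p = 0.131) and that of Rab27b -0.14 (SE 0.13). At 24 against 12 months Rab27a had -0.37 (adjusted p = 0.0735; 0.0267 with DESeq2).

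Of 9 transcription factor genes tied to lysosomal genes or to Ctss, Spi1 was called higher at 12 months and Spi1 and Irf1 at 24 months, against 2 months. Spi1 encodes PU.1 and had 4.37, 4.65 and 5.70 CPM at 24 months, against 2.84, 2.03 and 2.12 CPM at 2 months (log2 fold change 1.07, SE 0.20, adjusted p = 0.00531). At 12 against 2 months it had a log2 fold change of 1.10 (SE 0.20, adjusted p = 0.00718), and both calls held with each library left out but not without the 3 salivary-rich libraries (adjusted p = 0.0612 at 24 months and 0.201 at 12 months). Irf1, an interferon-induced factor, was 1.93-fold higher at 24 than at 2 months (adjusted p = 0.00907) and had a log2 fold change of 0.63 (adjusted p = 0.081; 0.019 without 24-month replicate 3) at 12 against 2 months. Irf8 had 0.28 (adjusted p = 0.519) and Tfeb -0.13 (SE 0.23, adjusted p = 0.755) at 24 against 2 months. Irf8 had 12.2, 20.2 and 8.27 CPM at 12 months, against 6.53, 7.22 and 8.77 CPM at 2 months, and was not called there. At 12 against 2 months it was called with DESeq2 (adjusted p = 0.0171), library totals (0.034) and no count filter (7.21e-07). With library totals 4 of the 9 were called higher at 12 and 3 at 24 against 2 months. No file used here measures the binding of these factors.

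Leaving out the 3 salivary-rich libraries, which leaves 2 libraries an age, lowered most of these counts. Over all genes it lowered the number called higher from 1467 to 484 at 24 against 2 months and from 808 to 97 at 12 against 2 months. At 24 against 2 months 7 macrophage markers, 5 other hydrolases, 2 membrane and pump genes, 3 fibroblast markers and 1 MHC class II gene were then called higher, with none of the other cathepsins, other cystatins or activation genes. At 12 against 2 months 0 macrophage markers, 0 MHC class II genes, 1 other hydrolase and 2 membrane and pump genes were called higher. Without the 2 muscle-bearing libraries no gene of the hydrolase, macrophage or fibroblast lists was called higher at 24 against 12 months.

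**Figure D5:**
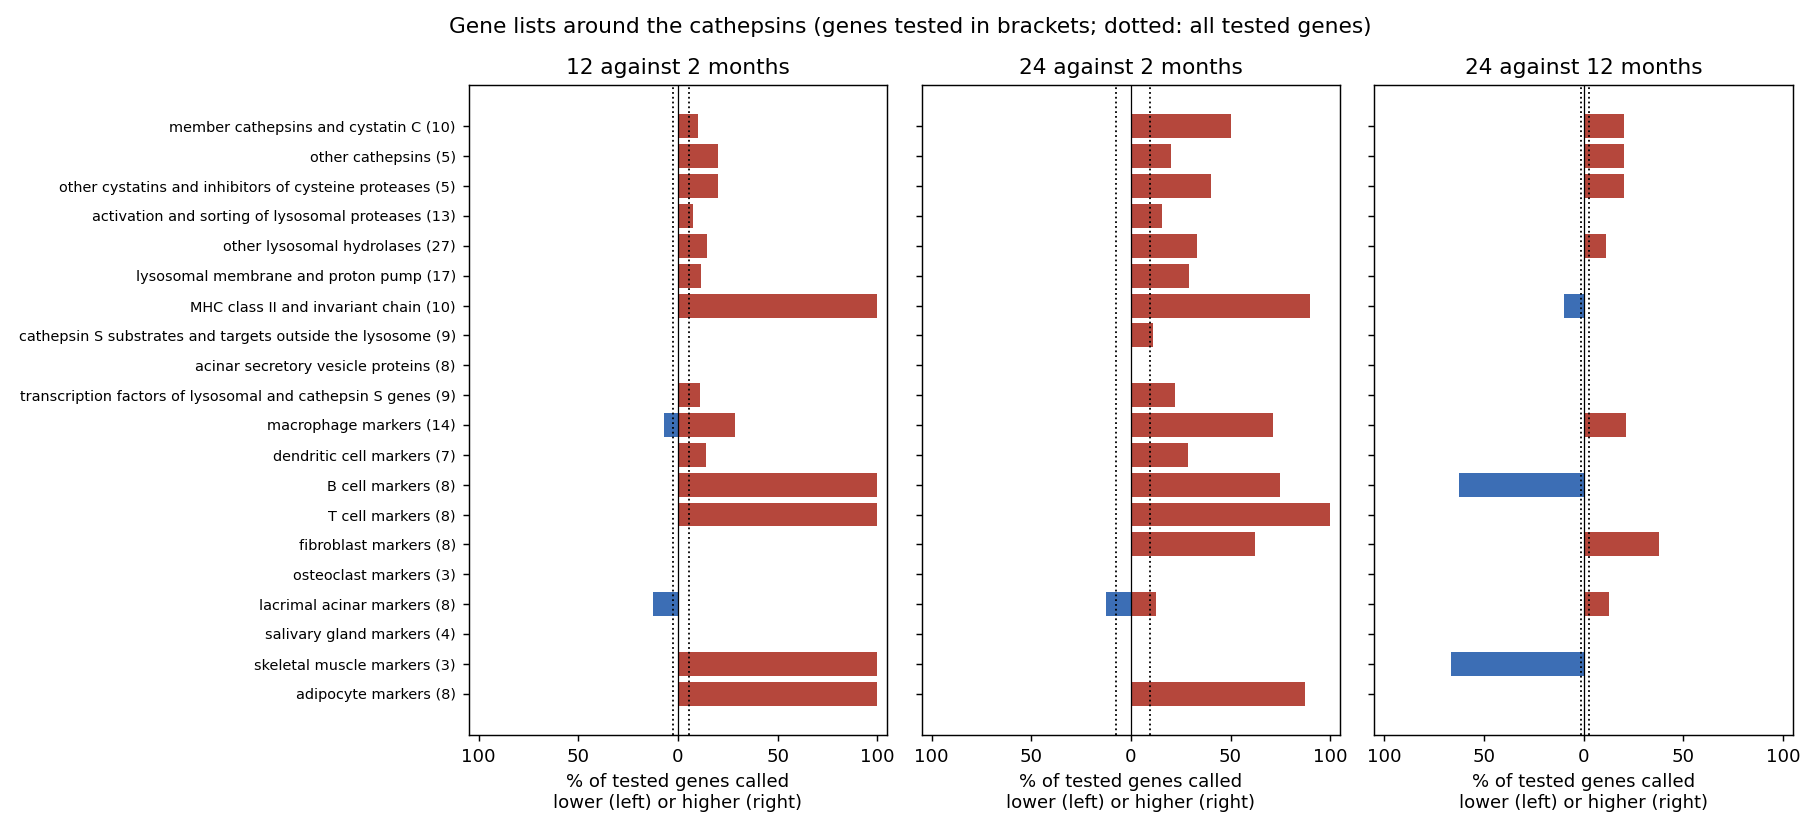
Share of the tested genes of each list called higher (right) or lower (left) at an adjusted p under 0.05, in percent, in the 3 comparisons of age; the number tested is in brackets and dotted lines mark the shares over all 14944 genes tested. The MHC class II bar is 100% at 12 against 2 months, and the secretory vesicle list has no bar in any comparison.

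Some genes overlap others on the opposite strand, and the strand setting of the counting is not given in the sources used here. Ctsb overlaps Fdft1, which had up to 1917 counts in a library, Ctsa overlaps Pltp (734) and Neurl2 (14), Ctsz overlaps Nelfcd (575) and Ctsc overlaps Gm26522 (13). Reads from the shared stretches cannot be assigned with certainty. No gene that overlaps Ctss, Ctsd, Ctsh, Ctsk, Ctsl or Cst3 had more than 9 counts in any library.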

How the data were processed

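RNA of 9 lacrimal gland libraries was sequenced. The count table as deposited holds whole reads per gene. The submitters' processing notes name STAR, HTSeq, cutadapt, FastQC and DESeq2 and the assembly GRCm38; versions, annotation release, strand setting and read filters were not given in the sources used here. A check of the log2 values deposited by the authors found them equal to log2(count / factor + 1) within 1e-06 in 100% of cases, and they were not used further. Symbols and exon lengths came from GENCODE M21 (54165 of 54232 genes matched; the other 67 held at most 0.00105% of a library's counts).

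Counts were tested by the quasi-likelihood F test of edgeR 4.0.16 (R 4.3.3) in 1 model of 3 ages with 6 residual degrees of freedom, after TMM scaling and filterByExpr (minimum count 10). That left 14944 genes with 99.93% or more of each library's counts; the common coefficient of variation was 21.2%. Benjamini-Hochberg adjustment covered every gene tested, and calls were made under 0.05. The SE of a log2 fold change is an approximation, its absolute value divided by the square root of the F statistic. Depth limits precision for genes of low counts, such as Ctsk. CPM are TMM-scaled; counts per kb use the exon union.

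The members, gene lists and comparisons were chosen with earlier results of these data known, and the motifs after the promoter sequences were seen. The rule for named genes took all 10 members, up to 3 called genes with the smallest p of each list plus 16 fixed genes, and 5 nearest genes for each member; from these the text names those that bear on a group, and other genes named with a small count were chosen after their values were seen. Alternatives were RLE scaling, scaling by library totals, no count filter or a minimum count of 50, DESeq2 1.42.0, limma 3.58.1 voom with sample weights, the replicate number as a block, a fit of the 2 ages compared alone, each library left out and other lengths. Leaving out the salivary-rich or the muscle-bearing libraries, and the APPRIS length, were added after seeing the data. Python 3.11.15, numpy 2.4.6, pandas 2.3.3 and matplotlib 3.10.9 were used.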

Additional observations from a re-analysis of the deposited data

How the results depend on the processing

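The 30 log2 fold changes of the 10 genes were recomputed under 19 alternatives. Of the 570 values 544 stayed on the same side of the threshold, and 14 lost and 12 gained a call. No value called in the main fit or in the alternative changed sign. Uncalled values did change sign, as for Ctsa (-0.09 to 0.31) and Ctsc (-0.13 to 0.26) at 12 against 2 months. Of the 30 log2 fold changes, 20 kept their side of the threshold throughout. The number of the 10 called at 12 against 2 months was 2 rather than 1 with library totals, DESeq2 and voom, and 1 with each library left out. At 24 against 2 months it was 1 rather than 5 without the 3 salivary-rich libraries, and 4 to 5 with each library left out. Library totals and DESeq2 each gave 6 there, and voom and no count filter each added a call of Ctsk. At 24 against 12 months it was 1 rather than 2 with library totals, 1 to 3 with each library left out (1 without 12-month replicate 1), and 0 without the salivary-rich or without the muscle-bearing libraries. DESeq2 called 3 at 24 against 12 months, and voom and no count filter each added a call of Ctsb. For any of the 3 ages the number was 1 rather than 4 without the salivary-rich libraries. Cst3 gained that call with DESeq2 (adjusted p = 0.0137), library totals (0.035), no count filter (0.000428) and a minimum count of 50 (0.0499). It also gained it without 12-month replicate 3 (0.0495) and without 24-month replicate 1 (0.0179). Leaving out the salivary-rich or muscle-bearing libraries leaves fewer samples; the cause of the other changes was not tested.

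The Ctss to Cst3 ratio was 0.343, 1.005 and 0.858 at 2, 12 and 24 months with APPRIS lengths, which differ from the exon union, and 1.58 at 12 months with no length correction. With each library left out it was 0.449 to 0.544, 1.45 to 1.51 and 1.201 to 1.31.

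Same-numbered libraries did not deviate together over all tested genes (r of -0.148 to 0.067 in 9 pairs). Such a correlation cannot exclude a shared batch that affects part of the genes. With the replicate number as a block, 1, 5 and 2 of the 10 genes were called at 12 against 2, 24 against 2 and 24 against 12 months, and all genes called numbered 701, 1886 and 409 rather than 1185, 2597 and 656. All genes called at 24 against 12 months were 1223 with DESeq2, 1486 with no count filter, 340 with library totals, 132 without the muscle-bearing libraries and 170 without the salivary-rich ones. At 12 against 2 months they were 1821 with DESeq2, 2026 with no filter, 746 without the muscle-bearing libraries and 127 without the salivary-rich ones, and at 24 against 2 months 626 without those 3. With each library left out they were 435 to 1285, 1160 to 2623 and 312 to 700. Scaling by library totals put the median over all genes at 0.31 (log2) at 12 and at 24 against 2 months, and the higher and lower calls to 1614 and 80, rather than 808 and 377, at 12 months, and 2626 and 191, rather than 1467 and 1130, at 24 months.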
